A study of Homo sapiens with 6 samples.

Results

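The genes described here make, bind and remove the poly(A) tail of RNA. They are the 10 genes PAPD4, PAPD5, PAPD7, PAPOLA, PAPOLG, PABPC1, PABPC4, PABPN1, PAN2 and PARN, chosen by symbol, and each symbol matched 1 of the 57150 rows of the expression table. The study asked how the αCP proteins αCP1 and αCP2, which bind C-rich RNA, act on splicing in K562, a human leukemia line. Each of the 2 groups had 3 pools of cells, transfected with siRNAs against both αCP mRNAs or with control siRNAs and harvested after 72 h. The table gives, per gene, an FPKM (fragments per kilobase of transcript, scaled to the mapped fragments) and an estimated count for each group, in columns named KD and CTRL, with the pools of a group not separated. There was thus no spread between replicates and no test, and all differences below are between 2 columns. PAPD4, also called GLD-2, has a place of its own in the design, because the study describes 2 of its control siRNAs, CTRL-1 and CTRL-2, as directed against this mRNA, whereas CTRL-3 was non-targeting.

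Poly(A) tails are added to most mRNAs in the nucleus by the canonical polymerases PAPOLA and PAPOLG as transcripts are cleaved, and the nuclear poly(A)-binding protein PABPN1 coats the growing tail. In the cytoplasm PABPC1 and PABPC4 take over the tail and join it to the translation machinery. Noncanonical polymerases act on other substrates: PAPD4 lengthens tails in the cytoplasm, while PAPD5 and PAPD7 add tails to nuclear RNAs that are then trimmed or degraded, and also extend mRNA tails. PAN2 and PARN are exonucleases that shorten tails.

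The 5 polymerases share a nucleotidyltransferase signature, glycine and serine followed by a pair of catalytic aspartates with 1 residue between them. It is shown because it sets these genes apart from the binding proteins and nucleases and shows how close the paralogs are in this short stretch of reference sequence. The bases below are coding sequence in GRCh37, 5′ to 3′ on the sense strand, taken from GENCODE transcripts and identical in the genome. Capitals mark the codons of the glycine and serine and of both aspartates. All 5 genes are on the plus strand, and in all but PAPD4 the stretch spans an exon junction.
PAPD4: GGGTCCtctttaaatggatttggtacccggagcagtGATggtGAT
PAPD5: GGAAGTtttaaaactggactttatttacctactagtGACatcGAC
PAPD7: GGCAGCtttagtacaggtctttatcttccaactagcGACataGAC
PAPOLA: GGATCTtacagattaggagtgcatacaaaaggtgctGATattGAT
PAPOLG: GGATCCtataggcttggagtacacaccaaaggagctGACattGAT
The stretch lies at chr5:78936948-78936992 in PAPD4. In PAPD5 it covers chr16:50248144-50248178 and chr16:50249986-50249995, and in PAPD7 chr5:6738808-6738842 and chr5:6739845-6739854. In PAPOLA it covers chr14:96991698-96991728 and chr14:96993767-96993780, and in PAPOLG chr2:60995656-60995686 and chr2:60995916-60995929. In every gene 10 codons separate the serine from the first aspartate, so the stretches are 45 nt long. PAPOLA and PAPOLG were identical at 35 of these bases and PAPD5 and PAPD7 at 34, whereas every other pair, with PAPD4 or without it, was identical at 19 to 23.

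The estimated counts summed to 13699340 in the KD column and 11680567 in the CTRL column. Log2 ratios of the KD over the CTRL column were computed from FPKM + 1, which understates changes of low genes, over the 13741 genes whose FPKM averaged at least 1 over both columns. The median of these ratios was 0.01. Several genes did not bear out the labels of the columns. PAPD4 is a separate case, because it is named in the study's description of 2 control siRNAs and not in a label. Its values are given below. PCBP1, which encodes αCP1, had an FPKM of 184.1 in the KD and 187.8 in the CTRL column. PCBP2, which encodes αCP2, had 530.8 and 342.4. PCBP1 was thus nearly equal in the 2 columns, and PCBP2 was higher in the KD column. The study itself reported depletion of αCP1 and αCP2 in mRNA and in protein, and showed Western blots of both proteins. Of 15 erythroid genes that mark K562 cells, 7 were listed at 0 in both columns, among them GATA1, TAL1 and KLF1. The summed FPKM of these 15 genes was 299.8 in the KD and 106.1 in the CTRL column, most of it from HBE1 and TFRC. That of 6 epithelial genes was 4358 and 3174, most of it from KRT8 and KRT18. Of the 15 erythroid genes, 2 were over an FPKM of 5 in both columns and 9 below 1 in both. Of the 6 epithelial genes, 3 were over 5 in both and 2 below 1 in both, with KRT19 at 0, so neither list was expressed as a whole. The part of these in the results below was not tested, and the columns are called by their labels.

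All 10 genes were expressed, with levels from an FPKM of 2.57 for PAPOLG to 2125 for PABPC1 in the KD column and from 3.50 to 1235 for the same genes in the CTRL column. The order of the levels was the same in both columns, with the poly(A)-binding proteins highest, then PAPOLA and PAPD7, and then PARN, PAPD5, PAPD4, PAN2 and PAPOLG. With 1 value per column there is no spread by which to say which neighbours in this order differ. The summed FPKM of the 3 binding proteins was 23.0 times that of the 5 polymerases in the KD column and 12.3 times in the CTRL column. As a share of all estimated counts, the 10 genes took 0.332% in the KD and 0.287% in the CTRL column. PABPC1 alone held 36286 of their 45419 counts in the KD and 23999 of 33527 in the CTRL column. The 3 binding proteins took 0.295% in the KD and 0.239% in the CTRL column, and of the 3 only PABPC1 took a larger share in the KD column. The log2 ratio of its shares, KD over CTRL, was 0.37. It was -0.11 for PABPC4 and -0.16 for PABPN1, against a median of -0.21 for all genes tested. The 5 polymerases, at 0.0322% and 0.0425%, and the 2 nucleases, at 0.0041% and 0.0058%, took a smaller share in the KD column.

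**Figure D1:**
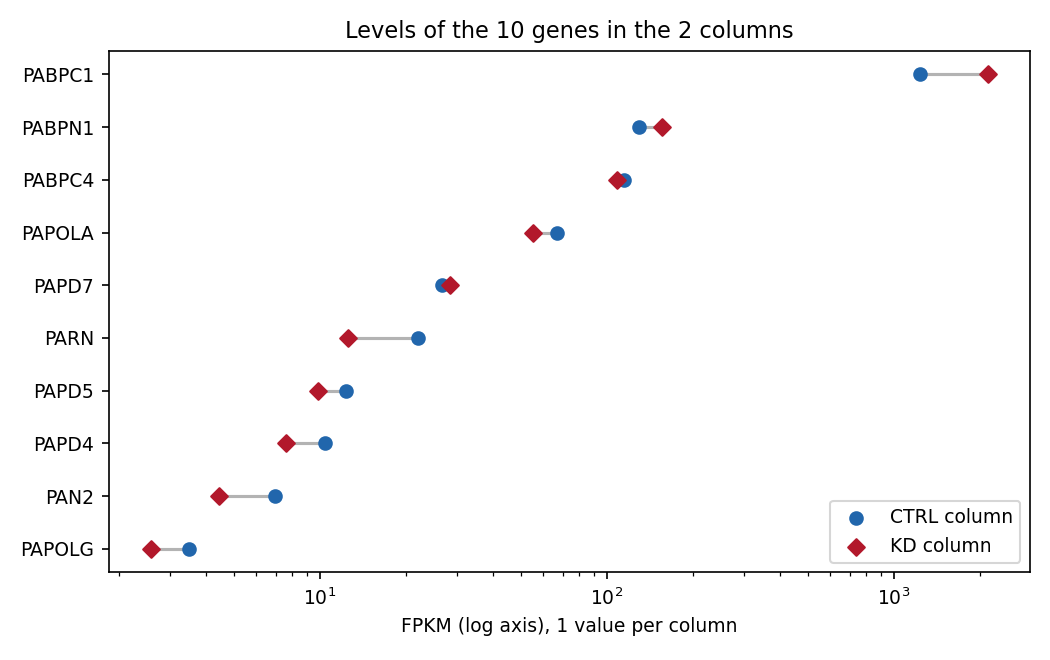
FPKM of each gene on a log axis in the CTRL column (circles) and the KD column (diamonds), 1 value per column. PABPC1, at 1235 and 2125, stands above the other 9 genes, and 7 of the 10 genes have the KD value to the left of the CTRL value.

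The ratios of the 10 genes were spread on both sides of 0, with a median of -0.28. The ratio was above 0 for 3 genes (PABPC1, PABPN1 and PAPD7) and below 0 for 7, whereas 51.1% of all genes tested were above 0. None of the 10 passed a log2 ratio of 1 in either direction, against 8.51% of all genes at 1 or more and 3.27% at -1 or less. At the smaller limit of 0.5, PABPC1 was higher, against 22.6% of all genes, and PARN and PAN2 were lower, against 16.1% of all genes.

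A different scale changes several of these values. When each estimated count was divided by its column total, the median of all genes moved to -0.21. Ratios of count shares are therefore given relative to that median, with a 95% exact binomial (Clopper-Pearson) interval that covers counting error only. The interval takes the estimated counts as plain counts of fragments. Whether they were scaled or averaged over the pools is not stated, and if so it would not measure that error. On this scale the interval lay above the median of all genes for 2 of the 10, PABPC1 and PABPC4, and below it for 5, PAPD4, PAPD5, PAPOLA, PAPOLG and PARN. Of all genes tested, 33.1% lay above and 31.2% below in the same sense, so that an interval clear of the median was common in the table. PABPC4 was on the other side of 0 from its FPKM ratio. When a trend in GC content and transcript length was fitted and subtracted from the FPKM ratios, PABPC4 and PAPD7 changed sign.

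**Figure D2:**
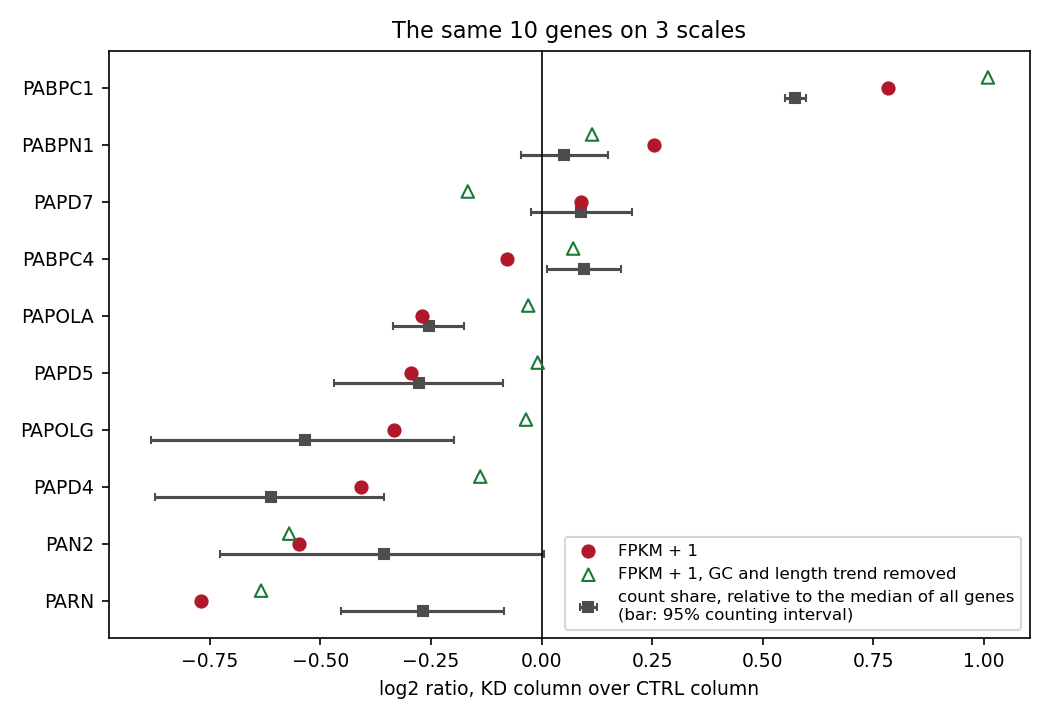
Log2 ratio of the KD over the CTRL column for each gene from FPKM + 1 (circles), from FPKM + 1 after that trend was subtracted (triangles), and from count shares relative to the median of all genes (squares, with 95% counting intervals). PABPC1 is right of 0 on all 3 scales and PAPD4, PARN, PAN2, PAPOLA, PAPOLG and PAPD5 are left of it, while PAPD7 and PABPC4 each change side on at least 1 of them.

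PAPD4 (ENSG00000164329) is encoded on chromosome 5 (hg19, 78907943 to 78982471). The KD column gave it an FPKM of 7.60 and the CTRL column 10.4, a log2 ratio of -0.41. The column labelled for the control siRNAs was therefore 1.37 times as high, although the study describes siRNAs against this mRNA among them. Whether those siRNAs lowered PAPD4 was not tested. The counts were 207 and 312, and the ratio of count shares relative to the median of all genes was -0.61, with an interval of -0.88 to -0.36. Among all genes tested, the FPKM ratio of PAPD4 was at percentile 20.9. After subtraction of the GC and length trend it was -0.14, and -0.30 from count shares. On every scale PAPD4 was thus lower in the KD column, by less than a log2 ratio of 1. How the targeted and the non-targeted control pools were combined in the CTRL value is not stated, and the levels in single pools were not analysed here.

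Among the other noncanonical polymerases, PAPD5 (chromosome 16, 50186829 to 50269221) was at 9.84 FPKM in the KD and 12.3 in the CTRL column, from 417 and 498 counts. Its log2 ratio was -0.29, and -0.01 with the trend removed. PAPD7 (chromosome 5, 6714718 to 6757161), its paralog, had 28.4 and 26.6, from 1291 and 1194 counts, and a log2 ratio of 0.09. The interval of its count shares relative to the median, -0.02 to 0.20, included 0, and with the trend removed the ratio was -0.17. The 2 paralogs thus had FPKM ratios on opposite sides of 0, and both were below 0 once the trend was subtracted. Within a column, the FPKM of PAPD7 was 2.88 times that of PAPD5 in the KD and 2.17 times in the CTRL column.

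PAPOLA (chromosome 14, 96967147 to 97033448), the main nuclear polymerase, was at an FPKM of 55.3 in the KD and 66.9 in the CTRL column, a log2 ratio of -0.27 from 2373 and 2789 counts. It held 53.3% of the summed FPKM of the 5 polymerases in the KD column and 55.9% in the CTRL column. Its paralog PAPOLG (chromosome 2, 60983365 to 61029220) was the lowest of the 10 genes, at 2.57 and 3.50, a log2 ratio of -0.33. Its 123 and 176 counts gave a wide interval, from -0.88 to -0.20 for count shares relative to the median. With the trend removed both were close to 0, at -0.03 for PAPOLA and -0.04 for PAPOLG. The level of PAPOLA over that of PAPOLG was 21.5 in the KD and 19.1 in the CTRL column. Across the 5 polymerases, 4 had a log2 ratio below 0, as did 6725 of the 13741 genes tested, and the range was -0.41 to 0.09.

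PABPC1 (chromosome 8, 101698044 to 101735037), the most abundant cytoplasmic poly(A)-binding protein, showed the highest ratio of the 10 genes. Its FPKM was 2125 in the KD and 1235 in the CTRL column, which is 1.72 times as high and a log2 ratio of 0.78. In rank among all rows it was 88 in the KD and 106 in the CTRL column. Its 36286 and 23999 counts left little counting error, with a ratio of count shares relative to the median of 0.57 and an interval of 0.55 to 0.60. With the trend removed the ratio was 1.01. The FPKM ratio before the trend was removed stood at percentile 86.6 of all genes tested, so that on that scale 1.72 times was not an extreme value. Its percentile with the trend removed is not given here.

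The other binding proteins differed less between the columns. PABPC4 (chromosome 1, 40026488 to 40042462), which is closely related to PABPC1, had an FPKM of 108.5 in the KD and 114.6 in the CTRL column, a log2 ratio of -0.08 from 2404 and 2216 counts. On count shares relative to the median it was 0.09, with an interval of 0.01 to 0.18. The level of PABPC1 over that of PABPC4 was thus 19.6 in the KD and 10.8 in the CTRL column. PABPN1 (chromosome 14, within a locus from 23743250 to 23795394), the nuclear protein, had 155.1 and 129.8, a log2 ratio of 0.26 from 1757 and 1669 counts. The interval of its count shares relative to the median, -0.05 to 0.15, included 0. PABPC1 made up 89.0% of the summed FPKM of the 3 genes in the KD and 83.5% in the CTRL column.

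Both nucleases were lower in the KD column. PARN (chromosome 16, 14529558 to 14726585), a deadenylase that also trims the ends of small RNAs, had an FPKM of 12.5 in the KD and 22.0 in the CTRL column. Its log2 ratio of -0.77 from FPKM was the lowest of the 10 genes and stood at percentile 6.99 of all genes tested. Its counts, 447 and 530, differed less, with -0.27 for count shares relative to the median and an interval of -0.45 to -0.08. On that scale PAPD4, PAPOLG, PAN2 and PAPD5 were lower than PARN. With the trend removed PARN was at -0.63 from FPKM and at -0.10 from count shares. PAN2 (chromosome 12, within a locus from 56665483 to 56727837), the catalytic subunit of the PAN2 and PAN3 complex, had 4.45 and 6.98, a log2 ratio of -0.55 from 114 and 144 counts. The interval of its count shares relative to the median, -0.73 to 0.005, just included 0. PAN3, which recruits PAN2 to the tail, had 4.59 and 5.08, a log2 ratio of -0.12. The level of PAN3 over that of PAN2 was 1.03 in the KD and 0.728 in the CTRL column.

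The gap between the FPKM and the count of PARN can be put as a ratio of its own. FPKM per estimated count depends on the transcript length that software assigns to a gene's fragments, and may also depend on how libraries were combined and scaled in each kind of value, which is not stated. It was compared between the columns and set relative to the median of all genes. For PARN this log2 ratio was -0.57, at percentile 1.83 of all genes tested, and for PAN2 it was -0.31, at percentile 6.05. PABPC4 was at -0.19. PABPC1, at 0.19, PABPN1, at 0.19, PAPD4, at 0.14, and PAPOLG, at 0.08, lay on the other side, and PAPD5, PAPOLA and PAPD7 were between -0.06 and -0.02. PARN was thus lower by more in FPKM than in counts, and what this difference rests on was not tested.

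Base composition also moved with the ratios. Across the 13298 tested genes with a matched transcript, the median log2 ratio in 4 groups of equal size, by rising GC content of the longest transcript, was -0.24, -0.13, 0.09 and 0.47. PAPD4, at 37.7% GC, PAPOLG, PABPC1, PAPOLA and PAPD5 were in the lowest group, and PAPD7, at 56.9%, was in the highest. The 4 polymerases of the lowest group had ratios of -0.41 to -0.27, a little below its median, and PABPC1, at 39.2% GC, had 0.78. PARN, at 45.0% GC, and PAN2, at 51.0%, were below the medians of their groups, and so was PAPD7, at 0.09 against 0.47. After the trend was subtracted, the median of the 10 genes was -0.03, with 3 above and 7 below 0. Of the 13298 genes, 6833 were then above and 6465 below 0. The part of base composition in the difference of any single gene was not tested.

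**Figure D3:**
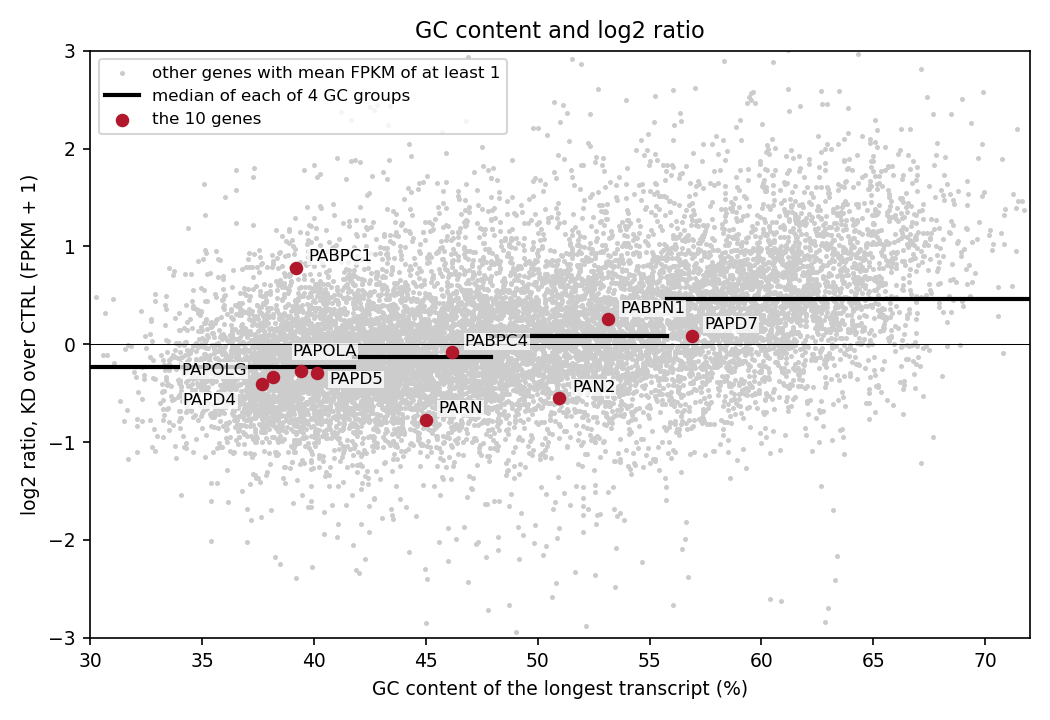
Log2 ratio of the KD over the CTRL column (FPKM + 1) against the GC content of the longest transcript, for the 10 genes (labelled) and the other genes tested (grey). Horizontal lines are the medians of the 4 GC groups, from -0.24 to 0.47, and 62 genes lie outside the plotted range. PABPC1 lies above the line of its group and PARN, PAN2 and PAPD7 below theirs, while PAPD4, PAPOLG, PAPOLA and PAPD5, at -0.41 to -0.27, lie just below theirs.

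Reads of 100 nt were mapped, and paralogs could in principle share them. To see how far, each stretch of 50 nt in the longest transcript of a gene was looked up, on either strand, in the transcripts of all other genes. None of the 10 genes shared such a stretch with another of the 10, in spite of the likeness of the paralogs shown above. For PAPD4, PAPD7 and PAPOLA all stretches were unique, and for PAPD5, PAPOLG and PARN at least 99.8% were. PABPC1 had 89.6% unique stretches, and PABPC3, an intronless relative, held 199 of its 3380. The PABPC3 row had 4 counts in the KD and 18 in the CTRL column, and of 15 rows whose symbols begin with PABPC1, which include pseudogenes, only PABPC1L reached a mean FPKM of 1.

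For PABPN1, PAN2 and PABPC4 most of the shared stretches lay in a read-through or antisense gene. PABPN1 had 50.2% unique stretches, and the read-through gene BCL2L2-PABPN1 held all 1354 of the others. The row of BCL2L2-PABPN1 was listed at an FPKM of 0 in the KD and 0.252 in the CTRL column, and how fragments in the shared stretches were divided cannot be read from the table. PAN2 had 73.9% unique stretches, with the others found in CNPY2-AS1, and PABPC4 had 84.3%, with 975 of its 1144 shared stretches in PABPC4-AS1, which is 1 of 264 genes that hold any of them. The library kit, TruSeq RNA V1, does not mark strand, so reads of these genes and of their antisense partners cannot be told apart where they overlap. Loci of the table that overlap those of the 10 genes held other rows with a mean FPKM of 1 or more for 3 genes: BCL2L2, HOMEZ, PPP1R3E and RP11-124D2.6 for PABPN1, CS, RP11-977G19.11 and 2 rows of CNPY2 for PAN2, and RP11-872J21.3 for PAPOLA.

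Genes that work with these 10 were taken from lists of known roles. Of 17 deadenylases and CCR4-NOT subunits, 13 had a log2 ratio below 0 and 4 above, against 51.1% of all genes above 0. Their median was -0.22, against 0.01 for all genes. CNOT6, a catalytic subunit of CCR4-NOT, was lowest, with an FPKM of 5.82 in the KD and 12.7 in the CTRL column and a log2 ratio of -1.01. TNKS1BP1, a protein associated with that complex, was highest, with 156.2 and 67.9 and a log2 ratio of 1.19. With the trend removed the median of this list was -0.07, with 7 above and 10 below 0, against 6833 above and 6465 below among all genes. The deadenylation adaptors of the BTG and TOB family, which bring CCR4-NOT to mRNAs, were at 0.05 (TOB1) to 0.64 (BTG2), with all 5 tested genes above 0, against 51.1% of all genes. This held with the trend removed and on count shares relative to the median, but on count shares not set against that median the list's median was -0.0024.

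Of the other nucleotidyltransferases, 6 of 9 were tested, with 3 above and 3 below 0, against 51.1% of all genes above 0. TUT1, which adds a tail to U6 RNA, was highest, at an FPKM of 20.1 in the KD and 11.4 in the CTRL column and a log2 ratio of 0.76, and MTPAP, the mitochondrial poly(A) polymerase, was lowest, at -0.18. After the GC and length trend was subtracted, TUT1 was at 0.31 and MTPAP at 0.05, and ZCCHC11, at 0.82, was then highest and FAM46B, at -0.48, lowest. Only 2 of the 8 other poly(A)-binding genes were tested. PABPC1L, at 0.918 and 4.45 from 22 and 56 counts, had a log2 ratio of -1.51, and ZC3H14, a nuclear zinc finger protein, had -0.26.

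Of 12 partners of poly(A)-binding proteins, 10 were tested, with 4 above and 6 below 0, against 51.1% of all genes above 0. ATXN2L was highest, at 61.4 in the KD and 30.6 in the CTRL column and a log2 ratio of 0.98, and LARP4, which binds poly(A), was lowest, at -0.58. With the trend subtracted ATXN2L was at 0.55 and EIF4G3, a translation initiation factor, was highest at 0.62, while PAIP1, at -0.34, was lowest and LARP4 was at -0.27. The partners of PAPD4 include the CPEB proteins, which recruit polymerases to cytoplasmic mRNAs. The 4 tested genes had ratios from -0.17 (QKI) to 0.30 (CPEB1), and from 0.15 (QKI) to 0.48 (BICC1) with the trend subtracted. CPEB1 was low, at an FPKM of 1.36 in the KD and 0.909 in the CTRL column from 37 and 35 counts. Its count share relative to the median of all genes was 0.06. The 7 listed genes of the exosome and its cofactors, TRAMP among them, were all tested. They lay between -0.20 (ZCCHC8) and 0.21 (EXOSC3), with a median of -0.01. EXOSC3 was on the other side of 0 by counts, at 314 in the KD and 340 in the CTRL column, with a count share relative to the median of all genes of -0.14, and the median of the list on that scale was also -0.14. With the trend subtracted from the FPKM ratios the median was 0.15.

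**Figure D4:**
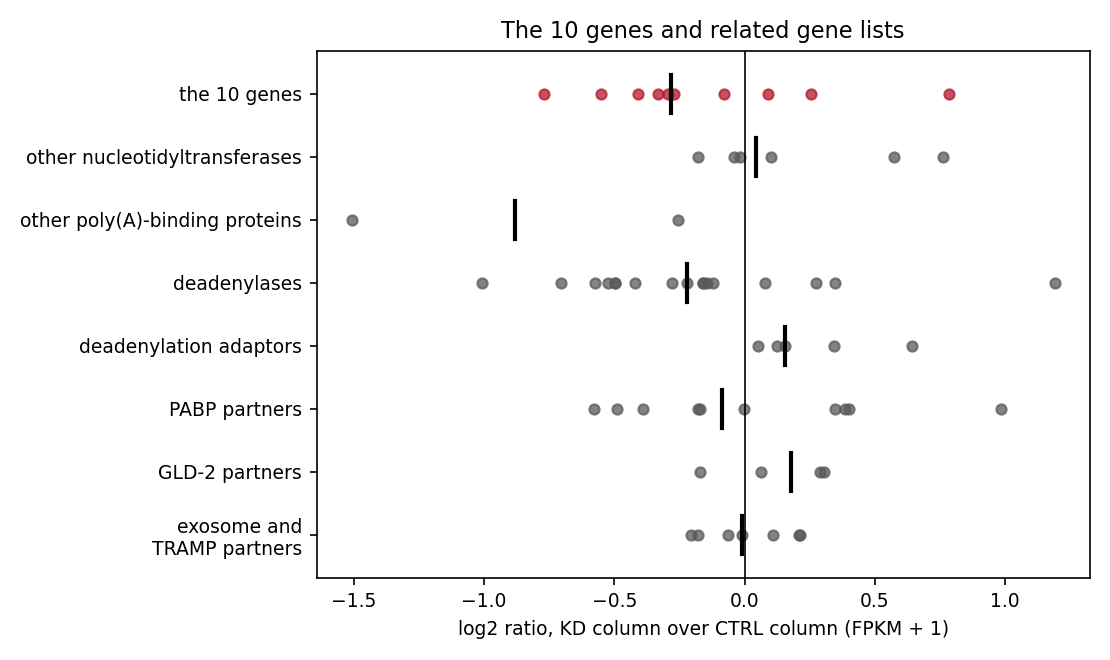
Log2 ratio of the KD over the CTRL column (FPKM + 1) for the 10 genes and for each tested gene of 7 related lists, with a vertical bar at each median. The 10 genes have a median of -0.28 and the deadenylases -0.22 (-0.03 and -0.07 after the GC and length trend was subtracted), and the 5 deadenylation adaptors all lie above 0.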

How the data were processed

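RNA-seq was made from 3 pools of K562 cells per group. The authors mapped the reads with TopHat 1.4.1 to hg19 and Ensembl transcripts and deposited FPKM values from Cuffdiff 2.2.0 and estimated counts, 1 value per gene and group, as the methods and the submitters' processing notes give. How libraries were combined and which release the symbols follow were not checked. Of the positive counts, 85.6% (KD) and 86.9% (CTRL) were whole within 0.01. The table's p-value and FDR columns hold the authors' own comparison, were deposited with it and were not used, nor were its fold change, average, maximum and minimum columns.

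Log2 ratios used FPKM with a pseudocount of 1 and covered genes whose mean FPKM was 1 or more. Count-share ratios had 1 count added, and their 95% intervals were exact binomial. The trend was a quadratic fit in GC content and log2 length of the longest transcript in GENCODE 44 on GRCh37, which matched 96.8% of the tested genes. Locus starts, counted from 0 in the table, were raised by 1. A linear model across libraries had been planned, but the table has 1 value per group. All 10 genes, the highest and lowest of each list, and related or overlapping rows were named by rule. PAN3, PABPC3, ZCCHC11, FAM46B, EIF4G3, PAIP1, BICC1, the antisense genes and the examples of marker genes were named after values were seen. Members and lists were chosen with earlier results of these data known. The functions were tested on simulated data. The work used biopython 1.88, scipy 1.17.1, pandas 2.3.3, numpy 2.4.6 and matplotlib 3.10.9 under Python 3.11.15.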

Additional observations from a re-analysis of the deposited data

How the results depend on the processing

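For the 10 single genes, a pseudocount of 0.1 and centring on the median of all genes moved no ratio by more than its counting interval and changed no sign. Counts divided by column totals moved 7 of the 10 and put PAPD7 and PABPN1 below 0, and subtraction of the GC and length trend moved 7 and changed the sign of PAPD7 and PABPC4. Count shares relative to the median and count shares with the trend removed were chosen after seeing the data. The first moved 4 and changed the sign of PABPC4, and the second moved 7 and changed the sign of PAPD5, PAPD7, PAPOLA, PABPC4 and PABPN1. PABPC1 was above 0, and PAPD4, PAPOLG, PAN2 and PARN below 0, in all settings run. The cause of these moves was not tested.

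The median of the 10 genes, -0.28, was between -0.47 and -0.03 in all settings. Counts divided by column totals moved the median of the other nucleotidyltransferases to -0.25 and of the deadenylases to -0.53. The same setting moved those of the deadenylation adaptors to -0.0024 and of the exosome genes and cofactors to -0.34. The median of all genes on that scale was -0.21. With the trend removed the deadenylases were at -0.067 and the partners of PAPD4 at 0.35. Over the whole table, 450 genes were lower by 1 or more, against 791 with a pseudocount of 0.1, 1326 with counts divided by column totals and 292 among genes over 5 FPKM in at least 1 column, where fewer genes were counted. Of genes past 1 in either direction, 72.2% were higher with FPKM and 40.9% with counts.

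No paired analysis was possible because each group has a single column, and no library was left out for the same reason. Each symbol had 1 row, so summing rows was not needed. PAPOLG, with 123 and 176 counts, and PAN2, with 114 and 144, are the least precise of the 10.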
